A study of Mus musculus with 6 samples.

Results

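The genes of the TET enzymes, Tet1, Tet2 and Tet3, and of their relatives Cxxc4 and Cxxc5 were examined for the DNA base 5-hydroxymethylcytosine (5hmC). Peaks of 5hmC that overlapped the RefSeq span of any of these 5 genes, extended by 5 kb at both ends, were taken along with every peak between Tet2 and Cxxc4 on chromosome 3. Overlapping peaks of the 4 libraries were merged, which gave 57 regions of the 174070 regions found in the genome. Of these 57, KO replicate 1 had called 32, KO replicate 2 had called 37, flox replicate 1 had called 36 and flox replicate 2 had called 37.

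The libraries came from Kit-enriched bone marrow cells of Tet2fl/fl;CreER mice (strain C57BL/6), in which an oestrogen-responsive Cre can excise part of Tet2. All cells, controls included, carried AML1-ETO and GFP from the retrovirus MigR1-AE-IRES-GFP and had been replated in methylcellulose before growth in suspension with SCF, IL-3 and IL-6. Cells labelled KO (Tet2-/-, 2 libraries) had received 200 nM 4-OHT for 2 passages, or 4 days, and cells labelled flox (Tet2fl/fl, 2 libraries) had received ethanol. At passage 5, cells of an immature myeloid phenotype were sorted (CD11b- and Gr1-, with GFP+ and CD16/32+), and fragments of their DNA were captured with a 5hmC antibody and sequenced. Only KO cells had seen the drug, so drug, active Cre and loss of Tet2 cannot be told apart. The labels do not say whether the libraries of a group came from separate cultures, so the spread between them may be technical. They held 116539 to 122101 peaks each, covering 110.3 to 113.3 Mb. The number of reads behind them was unknown. A peak list gives no expression, so the sorted cell type was not checked here, and more cells with the mark cannot be told apart from more mark per cell.

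TET enzymes oxidise 5-methylcytosine to 5hmC, using iron and alpha-ketoglutarate, and so open the way to loss of DNA methylation. TET2 is one of the genes most often mutated in human myeloid malignancy. The CXXC domain is a zinc finger that binds DNA with unmethylated CpG, a C followed by a G. Tet1 and Tet3 have such a domain, whereas Tet2 lost its own in vertebrate evolution to the neighbouring gene Cxxc4, also called Idax. The Cxxc4 protein binds Tet2 and lowers its amount in cells, and Cxxc5 is the closest relative of Cxxc4.

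The transcription starts of these genes differed in called 5hmC peaks. The RefSeq windows of 300 bases around 3 of them (250 bases before and 50 after the start, GRCm38.p6) are shown for that reason. Cxxc4 had a peak over its start in every library, and Tet2 had none in any. At Tet3 the nearest peak of each library began 0.039 to 0.284 kb downstream of the start used. The Tet3 start used here, 83441678, lies inside its RefSeq span, downstream of the 5′ end at 83457208. The starts used for Tet1 (62887324), Tet2 (133544390) and Cxxc4 (134236495) also lie inside their spans, nearer to the 5′ ends. Those ends are at 62887469, 133545136 and 134236144. Distances are counted from the starts used. Each line runs 5′ to 3′ on the strand of the gene, and capitals mark each CpG.
Cxxc4, chr3:134236245-134236544, plus strand: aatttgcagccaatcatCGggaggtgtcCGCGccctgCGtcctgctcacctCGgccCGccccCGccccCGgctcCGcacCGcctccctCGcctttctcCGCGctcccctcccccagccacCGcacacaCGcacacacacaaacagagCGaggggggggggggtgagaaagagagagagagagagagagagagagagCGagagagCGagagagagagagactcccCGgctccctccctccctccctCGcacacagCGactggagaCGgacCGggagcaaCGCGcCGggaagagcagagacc
Tet2, chr3:133544341-133544640, minus strand: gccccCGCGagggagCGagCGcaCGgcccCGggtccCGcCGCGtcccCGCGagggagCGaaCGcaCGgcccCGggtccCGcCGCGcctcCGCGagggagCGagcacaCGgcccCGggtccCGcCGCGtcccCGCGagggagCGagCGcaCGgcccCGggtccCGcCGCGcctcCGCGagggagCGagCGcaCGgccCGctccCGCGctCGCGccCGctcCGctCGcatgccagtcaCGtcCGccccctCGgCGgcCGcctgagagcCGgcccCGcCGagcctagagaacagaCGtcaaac
Tet3, chr6:83441629-83441928, minus strand: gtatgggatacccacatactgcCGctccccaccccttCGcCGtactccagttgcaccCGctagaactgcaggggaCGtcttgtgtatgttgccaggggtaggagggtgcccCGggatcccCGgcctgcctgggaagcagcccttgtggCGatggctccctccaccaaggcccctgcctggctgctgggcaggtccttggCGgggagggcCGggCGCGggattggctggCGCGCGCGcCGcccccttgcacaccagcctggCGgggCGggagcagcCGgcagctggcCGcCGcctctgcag
The Cxxc4 window held 26 CpG and lay whole, with its 300 bases, under a peak of each library. The Tet2 window held 57 CpG, and no library had a peak in it. It repeats a similar CpG-rich stretch several times, and the Cxxc4 window holds runs of GA. Whether such repeats alter capture or the placing of reads was not tested. A window without a peak may therefore still hold 5hmC. In the Tet3 window, with 22 CpG, KO replicate 1 covered 5 bases, KO replicate 2 none, flox replicate 1 11 bases and flox replicate 2 none. The Tet1 window (17 CpG) had no peak in any library.

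A start with a 5hmC peak in every library was uncommon in these cells. Over the 21263 start windows of protein-coding genes, 5.28% were called in all 4 libraries and 86% in none, and 95.4% held at least 1 CpG. The motif CG reads the same on both strands. Among the 4802 windows with at least as many CpG as that of Cxxc4, 275 (5.73%) were called in all 4 libraries. That share is close to the one over all windows. Of the 38 windows with at least as many CpG as that of Tet2, none was called in all 4 libraries and 35 were called in none.

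Over the 5 genes, called length, meaning the bases under peaks within the gene and 5 kb on either side, was lower in both KO libraries than in both flox libraries at Tet1, Tet3 and Cxxc5, and higher in both at Cxxc4. At Tet2 itself the groups overlapped. None of these differences passed the test over all genes, which called 0 of 14162 genes (0%, limma, Benjamini-Hochberg adjusted p under 0.05). Without adjustment, 869 genes had a p under 0.05, of which 609 were lower and 260 higher in KO. Groups that did not overlap were common, with KO lower at 20.7% of all tested genes and KO higher at 14.6%. All 5 genes were among those tested, since each had a mean of at least 500 bp.

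**Figure D1:**
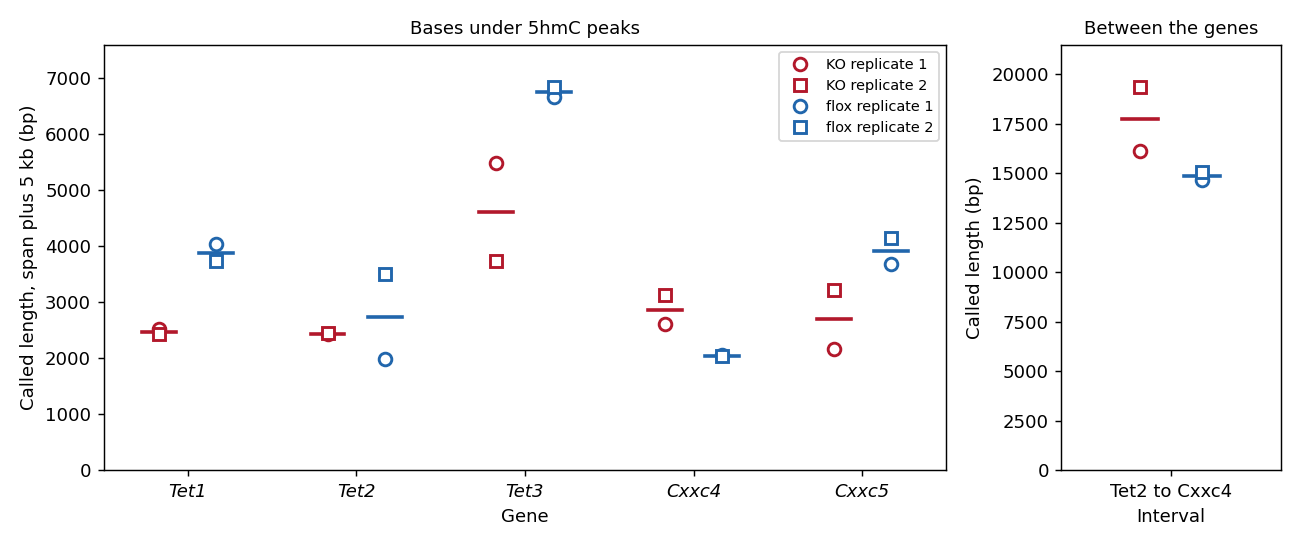
Bases under 5hmC peaks in each library, for the 5 genes with 5 kb at both ends (left) and for the stretch between Tet2 and Cxxc4 (right), in bp. Circles and squares are replicates 1 and 2, red is KO, blue is flox and lines are means. KO lies below flox at Tet1, Tet3 and Cxxc5 and above it at Cxxc4 and between the genes.

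Tet2 (chromosome 3, 133463677 to 133545136, GRCm38, minus strand) is the gene that Cre excises in KO cells, and its highest ranked 5hmC region was called in both groups. It carried 2432 and 2448 bp of called length in KO replicates 1 and 2, against 1981 and 3509 bp in flox replicates 1 and 2. The 2 flox libraries lay on either side of the KO libraries, and the log2 difference was -0.09 (SE 0.31, 95% interval -0.86 to 0.68, limma adjusted p = 0.979). It was 0.27 without flox replicate 2 and -0.45 without flox replicate 1. The region that all 4 libraries called, 133512266 to 133513916, lies 30.5 kb downstream of the transcription start. There the authors' peak score, which rises with the evidence for a peak within its library, was 445 and 419 in KO and 812 and 438 in flox. Within the 4 lists this put it at percentiles 97.3 and 97.1 in KO and 99.5 and 97.6 in flox, the highest rank among the 57 regions in every library.

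The other regions of Tet2 were called in 1 or 2 libraries, with scores of 51.9 to 97. One at 133480172 to 133481363 had 778 bp in KO replicate 2 and 1163 bp in flox replicate 2. Another at 133484612 to 133485541 had 930 bp in KO replicate 1 and 828 bp in flox replicate 1. The region 133505498 to 133506027 had 530 bp in KO replicate 2 alone, and the last one, 1.05 kb upstream of the start at 133545440 to 133546153, had 714 bp in flox replicate 2 alone. None of these 4 was called in both libraries of 1 genotype and in neither of the other. Which part of Tet2 is excised is not stated in the labels, so the peaks check nothing about the deletion.

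The 691 kb between Tet2 and Cxxc4 hold no other protein-coding gene in RefSeq, and their called length per kb was below the median of the gaps tested below. Called length there was 16118 and 19360 bp in KO replicates 1 and 2, against 14677 and 15052 bp in flox replicates 1 and 2. Both KO libraries thus lay above both flox libraries. The means were 17739 ± 2292 bp in KO and 14864.5 ± 265 bp in flox (SD, n = 2 each), and a two-sided exact permutation test gave p = 0.333, the smallest that 2 against 2 allows. Peaks numbered 19 and 22 in KO and 19 in each flox library (exact permutation p = 1).

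This stretch was also set among all 4407 gaps of at least 50 kb between protein-coding genes with a mean of at least 500 called bp. Per kb of sequence it held 25.8 bp of peaks in KO and 21.4 bp in flox, means scaled to equal totals. That put it at percentile 18.8 of these gaps, whose median over the 4 libraries was 47.4 bp per kb. Gaps with a mean under 500 bp were left out and were all sparser, so among all 5150 gaps the stretch would stand at a higher percentile. Its log2 difference of 0.26 (SE 0.14, 95% interval -0.06 to 0.57) was larger than the median of all gaps, 0.039, and did not pass (limma adjusted p = 0.789). No gap did (0 of 4407, 0%, with 280 gaps at an unadjusted p under 0.05). In 22.4% of gaps both KO values lay above flox, and in 14.2% both lay below. The difference was 0.13 without KO replicate 2, 0.38 without KO replicate 1 and 0.053 when peaks scoring under 100 were left out, and it turned to -0.055 when each list was cut to its 50000 highest scores.

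**Figure D2:**
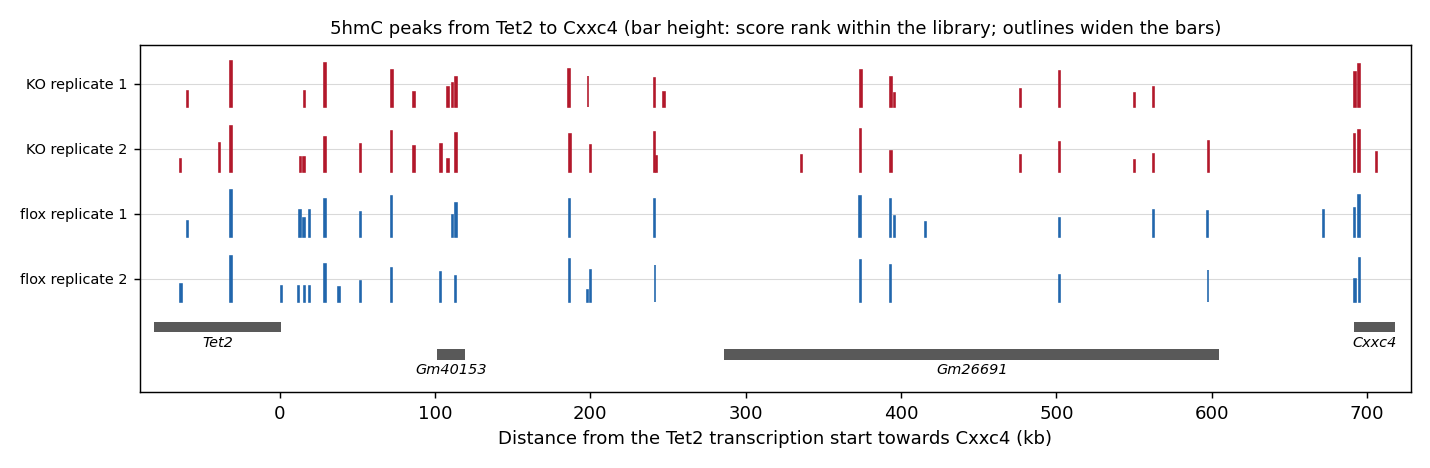
Peaks of the 4 libraries from Tet2 to Cxxc4, by distance in kb from the transcription start of Tet2 towards Cxxc4, with KO in red and flox in blue. Bar height is the rank of the peak's score within its library, and grey bars are genes and the long noncoding transcripts Gm40153 and Gm26691. Of the 31 regions between the genes, 9 lie in the first 100 kb beyond Tet2 and 7 in the next, and the highest ranked peak lies inside Tet2 in all 4 libraries.

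Merged regions were most frequent in the part near Tet2. By their midpoints, 9 of the 31 regions of this stretch lay in the first 100 kb beyond the gene and 7 in the next 100 kb, while the remaining 5 windows of 100 kb or less held 1 to 4 each. The region over the Cxxc4 start, also counted among the 31, has its midpoint inside Cxxc4. Called length in the first 100 kb was 3874 and 6025 bp in KO and 5070 and 7059 bp in flox, and in the next 100 kb 4521 and 5010 bp in KO and 2695 and 3862 bp in flox. It was thus greatest in the first 100 kb in 3 libraries, and in the next 100 kb in KO replicate 1. In the last 91 kb before Cxxc4 a single region had its midpoint. Gm40153, a long noncoding transcript of 17.7 kb, overlapped 4 of the regions, and Gm26691, of 319 kb, overlapped 10.

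Of the 31 regions between the genes, 10 (32.3%) were called in all 4 libraries, against 38.6% of the 88609 regions in all such gaps. They include 133559400 to 133560662, which lies 15 kb upstream of the Tet2 start and had low scores of 56.9 to 63.6 in all 4 libraries. Next comes 133572617 to 133574344, 28.2 kb upstream, with 1377 and 1420 bp in KO and 1264 and 1665 bp in flox. KO replicate 1 scored 287 there, and the other 3 libraries 122 to 147. Further out were 133615865 to 133617131 (71.5 kb upstream) and 133657045 to 133658441 (113 kb, within Gm40153).

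At 133730137 to 133731855, 186 kb upstream of Tet2, peaks were longer in both KO libraries (1272 and 1287 bp) than in both flox libraries (816 and 895 bp). The scores there did not follow the length, with 150 and 144.5 in KO against 147 and 227 in flox. At 133937228 to 133938384, 393 kb upstream and inside Gm26691, the 2 measures went opposite ways. Length was 924 and 1139 bp in KO and 495 and 847 bp in flox, while scores were 98.7 and 69.3 in KO and 147 and 136 in flox. At 134045919 to 134046782 length was nearly equal (833 and 851 bp in KO, 823 and 860 bp in flox), and scores were higher in KO (128 and 100.2) than in flox (64.8 and 86.6). Score ranks within the lists went the same way as the scores at this region and at the one before it. Regions of this class at 133785688 to 133786298 and 133917397 to 133919124 overlapped between groups in both length and score. The last of the class, 134235892 to 134237138, reaches over the Cxxc4 start and is described with that gene.

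Regions called in both libraries of 1 genotype and neither of the other were few, and more of them belonged to KO. There were 4 KO-only regions among the 31 (12.9%, against 3.24% of regions in all gaps) and 1 flox-only region (3.23%, against 2.69%). The first KO-only region, 133630246 to 133631271, had 878 and 1026 bp in KO, 85.9 kb upstream of Tet2. The second, 133652324 to 133653205, had 800 and 761 bp and lies in Gm40153. The other two lie in Gm26691, 134020924 to 134021748 with 641 and 825 bp and 134094485 to 134095309 with 739 and 704 bp. All 4 had scores of 50.8 to 84.6, below the median score of their lists (94.5 and 96.6 in KO replicates 1 and 2), where the lowest score was 50. The flox-only region, 133562967 to 133564019, is 18.6 kb upstream of Tet2, with 881 and 638 bp and scores of 85.5 and 58.9. Regions of the same 4 libraries are not replicates, so these shares were not tested, and none of the 5 had a peak with a score of at least 100.

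The remaining 16 regions between the genes did not follow genotype. Of these, 4 were called in all libraries but 1. KO replicate 1 was the missing one at 133556347 to 133558036, 133595987 to 133597018 and 134141661 to 134142494, and flox replicate 2 at 134106381 to 134107399. A KO and a flox library shared each of 5 further regions. They are 133647800 to 133648649 and 133744182 to 133745108 (replicate 2 of both), 133655099 to 133656118 and 133939822 to 133940622 (replicate 1 of both), and 133742307 to 133743061 (KO replicate 1 and flox replicate 2). Single libraries called 7, with 543 to 1060 bp in KO (133786487 to 133787029 and 133879755 to 133880814 in replicate 2, 133791478 to 133792176 in replicate 1). In flox those single calls had 508 to 1052 bp, at 133582214 to 133583265 and the region next to Tet2 given above in replicate 2, and at 133959860 to 133960754 and 134216018 to 134216525 in replicate 1.

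Cxxc4 (chromosome 3, 134236144 to 134262163, plus strand) was the 1 gene of the 5 with more called length in KO. It had 2612 and 3122 bp in KO replicates 1 and 2, against 2052 and 2045 bp in flox. The groups did not overlap, and the flox libraries were nearly equal. The log2 difference was 0.41 (SE 0.23, 95% interval -0.16 to 0.98, limma adjusted p = 0.841). It was 1.07 when peaks scoring under 100 were left out, and 1.10 on the 50000 highest scores of each list. At both cuts the flox peaks over the Cxxc4 start (scores 91.1 and 75.1) dropped out, while the KO peaks there stayed.

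Both Cxxc4 regions that all 4 libraries called lie at or near its start. The region over the start, 134235892 to 134237138, had 962 and 1020 bp in KO and 893 and 1247 bp in flox, so lengths overlapped. Its scores were 120 and 151 in KO and 91.1 and 75.1 in flox, which put it at percentiles 65.6 and 76.3 of the KO lists and 47.9 and 32.6 of the flox lists. The next region, 134238289 to 134240090, begins 1794 bp downstream of the start. It had 1650 and 1576 bp in KO against 1159 and 798 bp in flox, and scores that overlapped (236 and 204 in KO, 196 and 256 in flox). Another, 134250141 to 134250666, had 526 bp in KO replicate 2 alone. At the start it was therefore the score rank within the list, and 1794 bp further the length, that was higher in both KO libraries.

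Tet1 (chromosome 10, 62804570 to 62887469, minus strand) encodes the enzyme through which 5hmC formation by this family was first described. It had 2519 and 2428 bp of called length in KO and 4040 and 3736 bp in flox. The groups did not overlap, and replicates lay closer to each other than to the other group. The log2 difference was -0.55 (SE 0.20, 95% interval -1.05 to -0.05, limma adjusted p = 0.790), and it was -0.12 when peaks scoring under 100 were left out and -0.089 on the 50000 highest scores of each list.

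In Tet1 both regions called in all 4 libraries were shorter in KO, with score ranks that were higher in KO, and the remaining regions were called in 1 library each. The region 62856238 to 62857850, 29.5 kb downstream of the start, had 1125 and 732 bp in KO and 1613 and 1302 bp in flox. Its scores were 389 and 380 in KO and 376 and 286 in flox, at percentiles 93.9 to 96.4 of the 4 lists. The region 62821262 to 62822292, 65 kb downstream, had 638 and 827 bp in KO and 989 and 880 bp in flox, with scores of 123 and 153 in KO and 73.3 and 57 in flox. Its score rank averaged 51 percentile points more in KO than in flox, the largest such difference among the regions called in all 4 libraries at these genes. Of those 6 single-library regions, 2 were in KO (756 bp at 62870346 to 62871101 and 869 bp at 62884083 to 62884951). The 4 of flox held 552 to 886 bp with scores of 55.7 to 106, at 62837957 to 62838834, 62854731 to 62855282, 62860092 to 62860767 and 62865816 to 62866701.

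Tet3 (chromosome 6, 83362373 to 83457208, minus strand), which encodes the main TET enzyme of the egg and early embryo, had 5485 and 3739 bp in KO and 6664 and 6852 bp in flox. The KO libraries lay apart from each other, and both below flox. The log2 difference was -0.51 (SE 0.22, 95% interval -1.08 to 0.05, limma adjusted p = 0.824). It was -0.26 without KO replicate 2 and -0.77 without KO replicate 1.

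The widest of the 57 regions, 83439553 to 83441639, begins 39 bp downstream of the Tet3 start shown above. That start, at 83441678, lies inside the RefSeq span, whose 5′ end is at 83457208. No library had a peak between these positions. It had 1582 and 1504 bp in KO and 1790 and 1842 bp in flox, and scores of 197 and 126 in KO and 275 and 359 in flox. Length and score rank within the list (percentiles 85.6 and 67.1 in KO, 92.6 and 96.3 in flox) were both lower in both KO libraries. Among regions called in all 4 libraries of the whole genome, 17.7% had lengths and 16.2% had score ranks that lay lower in both KO libraries. At 83435842 to 83436794, 4.88 kb downstream, KO replicate 1 had 783 bp, KO replicate 2 none, and the flox libraries 942 and 730 bp.

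Further into Tet3, the region 83388389 to 83389670 had scores below the median of the list in all 4 libraries (66.8 and 76.7 in KO and 53.8 and 63.2 in flox). The region 83367929 to 83368882 was flox-only, with 821 and 842 bp and unlike scores of 53 and 149. Flox replicate 2 alone called 83403378 to 83404368, and flox replicate 1 alone called 83408525 to 83409299. Beyond the 3′ end, 83357505 to 83358201 and 83359954 to 83361356 also overlap the neighbouring gene Bola3 (83349147 to 83360136), which encodes a mitochondrial iron-sulphur cluster protein. The first of them had 645 and 618 bp in KO and 476 and 529 bp in flox, and the second 1265 and 899 bp in KO and 968 and 1094 bp in flox. Over the span of Tet3 alone, which leaves these 2 regions out, the log2 difference was -0.77.

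**Figure D3:**
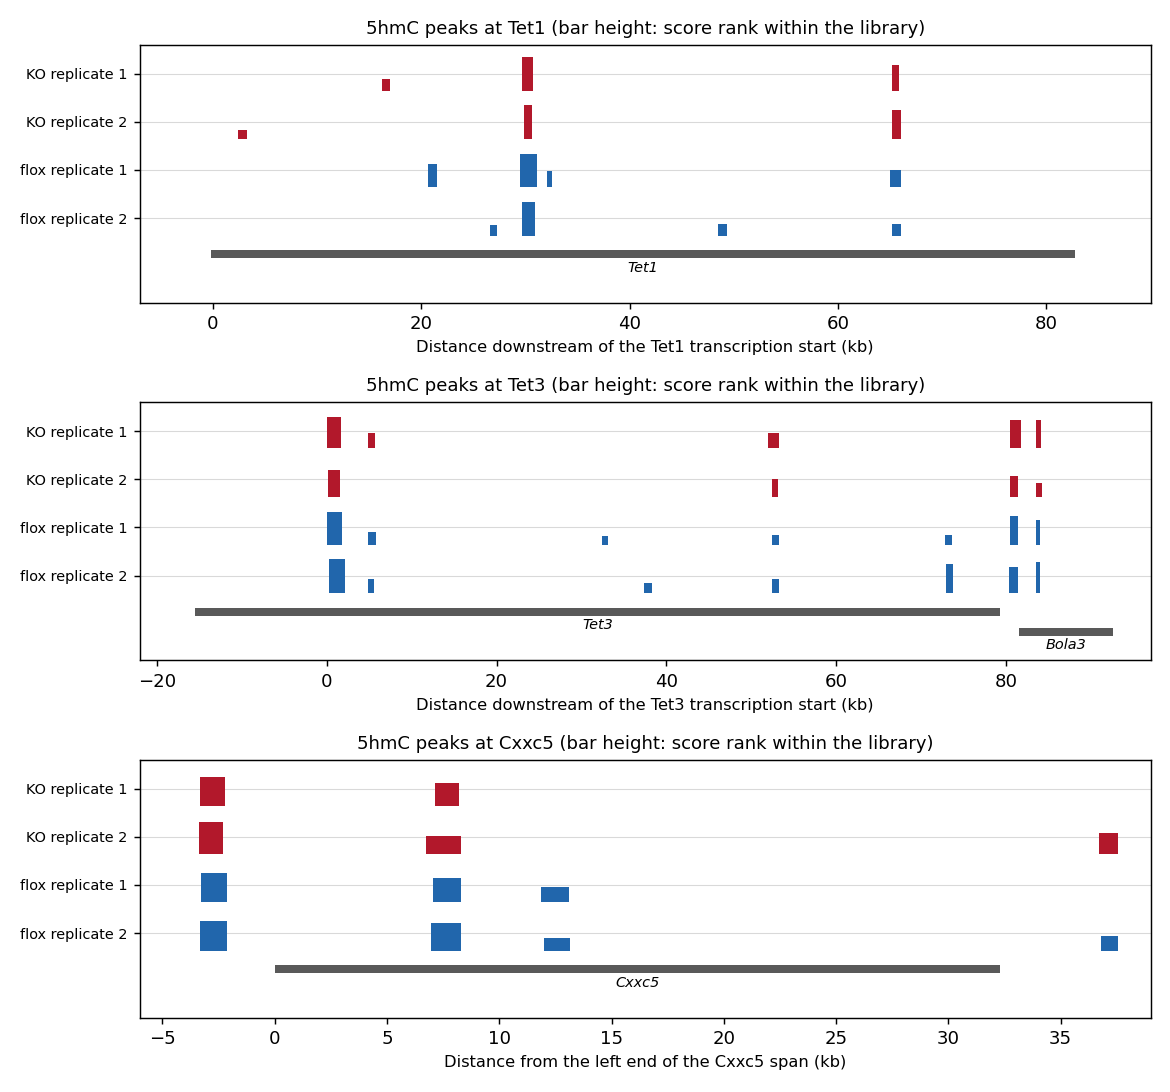
Peaks at Tet1, Tet3 and Cxxc5 in the 4 libraries, by distance in kb downstream of the transcription start (Tet1, Tet3) or from the left end of the gene span (Cxxc5). KO is red, flox is blue, bar width is peak length, bar height is the score rank within the library and grey bars are gene spans. The widest region begins 39 bp downstream of the Tet3 start used here, which lies inside the gene span. A region inside Cxxc5 appears in both flox libraries and neither KO library.

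Cxxc5 (chromosome 18, 35829379 to 35861693), which in mouse and human encodes a regulator of Wnt signalling, had 2173 and 3222 bp in KO and 3681 and 4150 bp in flox. Both KO libraries were lower, with the KO libraries further apart than the flox libraries. The log2 difference was -0.47 (SE 0.25, 95% interval -1.09 to 0.15, limma adjusted p = 0.833), and it was -0.24 without KO replicate 1, -0.71 without KO replicate 2, -0.71 over the span alone and -0.89 on the 50000 highest scores of each list. It includes 1 flox-only region, 35841224 to 35842516, with 1272 and 1125 bp and scores of 67.3 and 61.8. The region 35836132 to 35837669 was called in all 4 libraries and had 1096 and 1527 bp in KO and 1218 and 1324 bp in flox. Its scores were 100 and 78.9 in KO and 111 and 139 in flox. Outside the span, 35826007 to 35827272 was slightly shorter in both KO libraries (1077 and 1074 bp) than in flox (1191 and 1185 bp), and 35866073 to 35866940 was called in replicate 2 of each group (868 bp in KO, 748 bp in flox).

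Set per kb of the extended gene, the 5 genes stood in a clear order in flox and a looser one in KO. Scaled to equal totals, Cxxc5 had 51.8 and 76.2 bp per kb in KO and 85.4 and 98.9 in flox. Cxxc4 had 73.2 and 86.8 in KO and 55.9 and 57.3 in flox, and Tet3 had 52.8 and 35.7 in KO and 62.4 and 65.9 in flox. Tet1 had 27.4 and 26.2 in KO and 42.7 and 40.6 in flox, and Tet2 had 26.8 and 26.8 in KO and 21.3 and 38.7 in flox. In flox no neighbours in the order Cxxc5, Tet3, Cxxc4, Tet1, Tet2 overlapped. In KO the order was Cxxc4, Cxxc5, Tet3, and then Tet2 level with Tet1, and the ranges of neighbours overlapped except between Tet3 and Tet2. The median of the 14162 tested genes over the 4 libraries was 56.3 bp per kb. Among these genes Tet2 stood at percentile 19.2, Tet1 at 26.2, Tet3 at 48.1, Cxxc4 at 60.3 and Cxxc5 at 67. Genes with little called length were not tested, and to be tested a short gene needed more bp per kb than a long one. This median and these percentiles therefore hold for tested genes only. The standing of the 5 genes among all 21887 protein-coding genes was not examined.

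**Figure D4:**
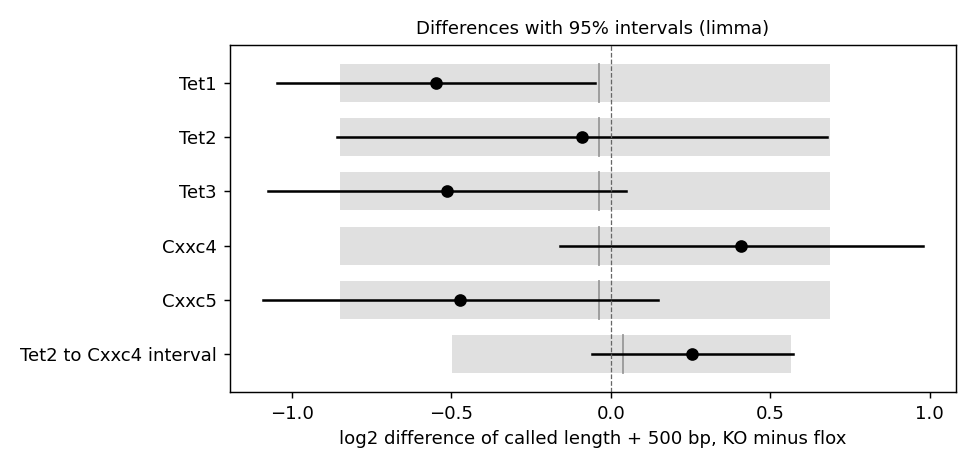
Log2 difference of called length plus 500 bp, KO minus flox, with 95% intervals from limma, for the 5 genes and the stretch between Tet2 and Cxxc4. Grey bars span the middle of the same difference over the 14162 genes or 4407 gaps tested, from percentile 5 to 95 (-0.85 to 0.69 for genes, -0.50 to 0.57 for gaps), with their median as a line, and all 6 points lie within them.

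Taking the 57 regions together, 20 (35.1%) were called in all 4 libraries, against 39.5% of all regions. KO-only regions numbered 4 (7.02%, against 3.00%), and all lay between Tet2 and Cxxc4. Flox-only regions numbered 3 (5.26%, against 2.96%), 1 each in that stretch, Tet3 and Cxxc5. Single libraries called 17 (29.8%, against 27.3%), 2 in KO replicate 1 and 5 in each of the other libraries.

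In the 20 regions called everywhere, neither group was stronger on balance. Length lay lower in both KO libraries at 4 and higher at 4 (against 17.7% and 15.8% of such regions in the genome), and score rank lay lower at 4 and higher at 5 (against 16.2% and 17.3%). Lower lengths were those of both Tet1 regions, the region just downstream of the Tet3 start used here and the one before Cxxc5. None lay from Tet2 to Cxxc4, where 3 regions were longer in KO. Median score rank was 72.5 and 75.2 in KO replicates 1 and 2, and 75.4 and 73.4 in flox. Restricted to peaks with a score of at least 100, 9 regions were called in all 4 libraries, 3 in KO alone and 1 in flox alone. The 3 were the Tet1 region 65 kb downstream of the start, the start of Cxxc4 and the region 502 kb upstream of Tet2, and the 1 in flox was that 393 kb upstream of Tet2. All 4 also had peaks of lower score in the other genotype, as given above.

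**Figure D5:**
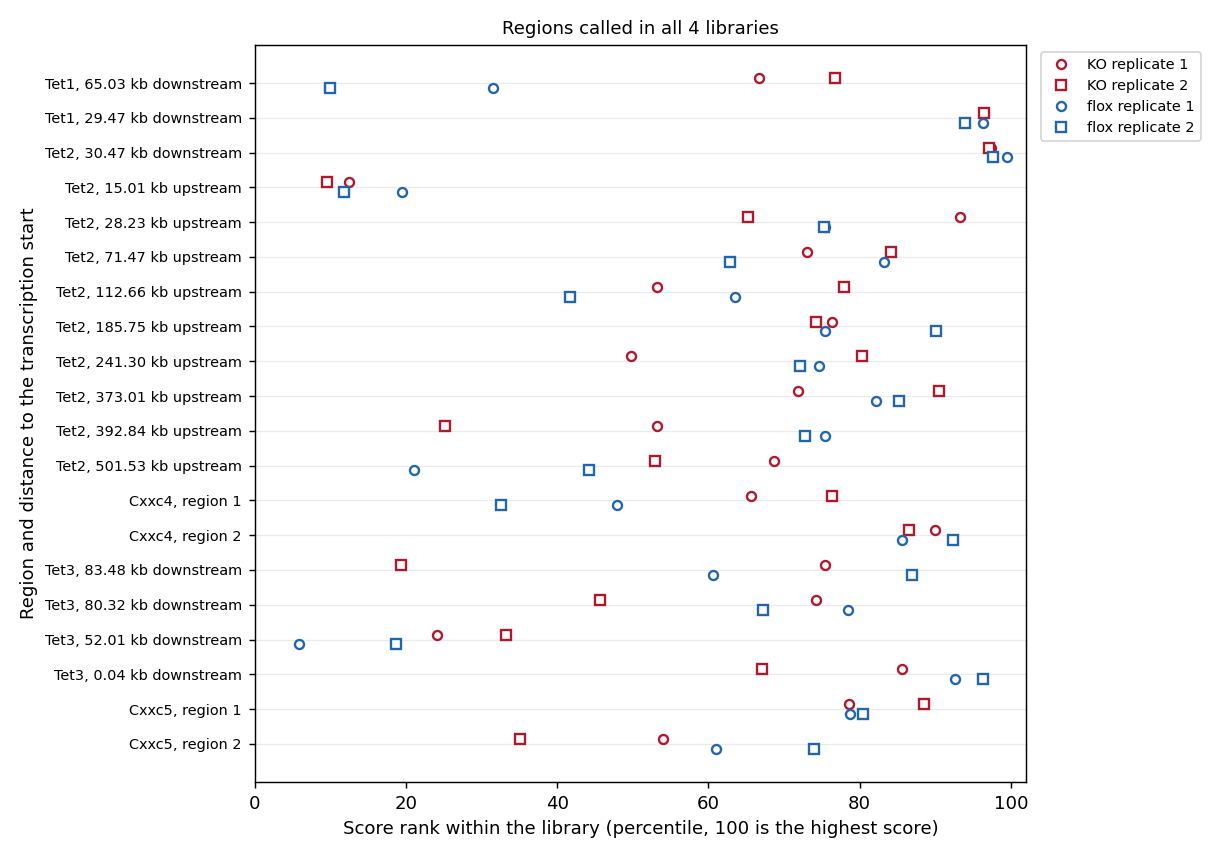
Rank of the peak score within its own library, as a percentile, for the 20 regions called in all 4 libraries, in order of locus and position. Red is KO, blue is flox, and circles and squares are replicates 1 and 2. Labels give the distance to the transcription start of Tet1, Tet3 or Tet2, the last also for regions between Tet2 and Cxxc4. Regions of Cxxc4 and Cxxc5 are numbered instead. The region 65 kb into Tet1 and the start of Cxxc4 (its region 1) rank higher in KO. The region that begins 39 bp downstream of the Tet3 start used here ranks lower in KO.

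Other genes with a CXXC zinc finger, which include readers of unmethylated CpG and the maintenance methyltransferase Dnmt1, were split in direction. All 8 listed genes were tested, 4 were lower and 4 higher in KO, 0 passed in either direction (limma, smallest adjusted p = 0.914, 0 at an unadjusted p under 0.05), and their median log2 difference was 0.014, against -0.038 over all genes. Both KO libraries lay below flox at 2 and above at 1 of the 8, against 20.7% and 14.6% of all tested genes. Fbxl19, which encodes an F-box protein that binds CpG islands, had 7173 and 7495 bp in KO and 8292 and 7857 bp in flox (log2 difference -0.12, SE 0.14). Kmt2a, the histone methyltransferase gene MLL, had 3085 and 3050 bp in KO and 2842 and 2656 bp in flox (0.15, SE 0.20, turning to -0.049 without peaks scoring under 100).

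Partners, cofactor enzymes and downstream genes of the 5hmC pathway were likewise split. Of 27 listed genes, 17 had enough called length to be tested, 7 were lower and 10 higher in KO, and their median log2 difference was 0.20. None passed (0 in either direction, smallest limma adjusted p = 0.779, 1 at an unadjusted p under 0.05), and both KO libraries lay below flox at 4 and above at 4 of the 17, against 20.7% and 14.6% of all tested genes. The gene with the unadjusted p under 0.05, named after its values were seen, was Spi1, which encodes the myeloid transcription factor PU.1. It had 12661 and 11435 bp in KO and 15164 and 16221 bp in flox (log2 difference -0.36, SE 0.13). D2hgdh, which encodes the enzyme that removes D-2-hydroxyglutarate, an inhibitor of TET enzymes, had 2673 and 1571 bp in KO and 2880 and 4236 bp in flox (-0.63, SE 0.32). That difference was -0.32 without KO replicate 2, -0.37 without flox replicate 2, -1.13 without peaks scoring under 100 and -2.13 on the 50000 highest scores of each list. Smug1, a DNA glycosylase gene, had 2629 and 2290 bp in KO and 4120 and 2723 bp in flox (-0.37, SE 0.26, -0.13 without flox replicate 1 and -0.62 without flox replicate 2, turning to 0.043 over the span alone and 0.027 without peaks scoring under 100). Uhrf2, which encodes a protein that binds 5hmC, had 3520 and 3330 bp in KO and 3281 and 2402 bp in flox (0.26, SE 0.22). That was 0.083 without flox replicate 2, 0.43 without flox replicate 1, 0.12 over the span alone and 0.040 with 10 kb at both ends.

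The genes closest to each of the 5 in called length over the 4 libraries were found by Euclidean distance on the log2 scale, a description of level and pattern together. For Tet1 they were Acss2 (2435 and 2558 bp in KO, 3946 and 3817 bp in flox) and Gnpat. For Tet3 they were Adarb1 (5707 and 3980 bp in KO, 6483 and 6764 bp in flox) and Camsap3. Closest to Tet2 were Pon3 and BC107364, to Cxxc4 Mfsd4b1 and Copz1, and to Cxxc5 Nfkbil1 and Myh13, all at distances of 0.08 to 0.19.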

How the data were processed

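The 4 libraries with a peak list were used, and the IgG control and input were not used here. Per the submitters' processing notes, CASAVA 1.8, Bowtie, MACS 1.4 and the build GRCm38 (mm10) were involved, without roles. For the settings, control library and duplicate handling, the sources used here give nothing. Apart from vanishingly small p-values, each deposited score was checked to match the deposited p-value written as -10 log10. Both are the authors' values for a peak within its library and served here to describe, rank and filter peaks within a list. The number of reads is unknown, and more depth can add weak peaks.

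Peaks overlapping by at least 1 bp were merged, and starts are counted from 1. Called length, scaled to equal totals, entered limma 3.58.1 (R 4.3.3, with trend and robust options) as log2(bp + 500), over all 14162 protein-coding genes, or 4407 gaps of at least 50 kb, with a mean of at least 500 bp. This scale understates changes of short called lengths. The fit was tested on simulated data, without changes or with changes far larger than those of the 5 genes. That test therefore does not show whether changes of their size would be called. Per-library values in the text are unscaled unless said otherwise. Positions and promoter windows are from RefSeq GRCm38.p6. The gene table gives no exons, so exons and introns were not analysed here. Symbols of all 5 genes matched, and 4 have a promoter window. Python 3.11.15, pandas 2.3.3, numpy 2.4.6, scipy 1.17.1 and matplotlib 3.10.9 were used.

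The 5 genes and both gene lists were chosen with earlier results of these data known. Of each list, up to 2 genes per direction were named, those with the largest difference among genes with both KO libraries on 1 side of flox and a mean of at least 2000 bp. The 2 nearest genes of each of the 5 were named too. Alternatives were pseudocounts of 100 and 1000 bp, no filter, dropping peaks scoring under 100, keeping the 50000 highest scores per list, no scaling, the span alone or with 10 kb, merging across 200 bp, leaving out each library and a replicate block.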

Additional observations from a re-analysis of the deposited data

How the results depend on the processing

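No alternative brought any of the 5 genes or the Tet2 to Cxxc4 stretch past the threshold. Tet1, Tet3 and Cxxc5 stayed lower and Cxxc4 higher in KO in all 13 alternatives. For groups that do not overlap, the pseudocounts, no filter, the replicate block and leaving out a library cannot turn a direction. Only the choice of peaks, the window and the scaling could have turned these genes. The call of 0 gaps became 0 to 1 with a library left out (1 without KO replicate 2). With the 50000 highest scored peaks, the Tet2 to Cxxc4 stretch turned to a log2 difference of -0.055, -354 bp and -0.5 peaks (KO minus flox, 2874.5 bp and 1.5 peaks with all peaks). With a library left out it spanned 1253.5 to 4495.5 bp and 0 to 3 peaks, with 0 without KO replicate 2. The direction of Tet2 turned over the span alone (0.051) and ranged from -0.45 to 0.27 with a library left out. Kmt2a turned to -0.049 and Smug1 to 0.027 with peaks of a score of at least 100, and to -0.019 and 0.052 with the 50000 highest scored peaks. Smug1 was 0.043 over the span alone. The cause was not tested.

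Counts of regions shrank with fewer peaks. With a score of at least 100, 9 of the members' regions were called in all 4 libraries, 4 of them between Tet2 and Cxxc4, with 2 KO-only there and 1 flox-only in all. With the 50000 highest scored peaks these were 9 and 4, with 2 KO-only and 2 flox-only, 1 of each between the genes, so KO-only regions were no more numerous than flox-only ones. Leaving out a library gave 4 to 9 KO-only and 4 to 9 flox-only regions in all, and 4 to 6 and 1 to 4 between the genes, since fewer libraries define each class. The regions called in every library kept were 20 to 23 in all and 10 to 13 between the genes. The median difference in score rank of the 20 regions called everywhere was -1.02 points (KO minus flox), and -0.60 to 0.29 with a library left out. Deviations of same-numbered libraries correlated at 0.0065 over genes, so the numbers were not taken as pairs. With a replicate block, which cannot move a difference in a balanced design (0.26 for the stretch), limma called 0 genes and 0 gaps. Depth was unknown, so a region called in 1 list alone may lie just under the score threshold of another.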
